A study of Mus musculus with 7 samples.

Results

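The p53 group described here is 10 genes: Cdkn1a, Gadd45a, Trp53, Mdm2, Trp53inp1, Ccng1, Bax, Bbc3, Sesn1 and Eda2r. They were measured in quadriceps muscle of AR113Q and WT mice on Agilent expression arrays. Every probe whose gene name in the scanner files, or current symbol, was one of the 10 was taken, which gave 13 of 39429 probes and 10 of 31131 gene names on the array. The genes were selected with the difference between these same arrays known, so their values are a description and no p-value is given for them. The AR113Q mice are a knock-in model of spinal and bulbar muscular atrophy (SBMA) with 113 CAG repeats. The labels give C57BL/6 as the strain of both groups and an age of 3 months. There were 4 WT and 3 AR113Q mice, with 1 array per mouse and 1 dye. The labels call the controls WT, while the study's text describes knock-in mice with a shorter repeat, so it cannot be told from these sources which of the 2 the controls are. The labels do not give the sex, and the study's reporting statement says that male mice were used. The comparison asks which transcripts differ in muscle before the onset of motor dysfunction.

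p53, the product of Trp53, is a transcription factor that is held low by the ubiquitin ligase MDM2 and accumulates after DNA damage and other stress. It then activates genes that stop the cell cycle, repair DNA, limit oxidative stress or start apoptosis, and Mdm2 itself, which closes a feedback loop. In skeletal muscle several of these targets are also driven without p53: Cdkn1a is activated by MyoD when myoblasts leave the cell cycle, and Gadd45a and Cdkn1a are induced by ATF4 in muscle that is immobilized, denervated or fasted.

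The sequences that locate the Cdkn1a and Gadd45a measurements come first. RefSeq (GRCm38.p6) gives Cdkn1a a pair of transcription starts, and the 250 bases before each are shown with the window of Gadd45a. Capitals mark 10-base matches to the p53 decamer, the unit of which a p53 response element holds a pair, and the GC box GGGCGG on either strand. The upstream Cdkn1a window lies at chr17:29090729-29090978 (plus strand), the downstream window at chr17:29093519-29093768 (plus strand), and the Gadd45a window at chr6:67037408-67037657 (minus strand).
Cdkn1a upstream start: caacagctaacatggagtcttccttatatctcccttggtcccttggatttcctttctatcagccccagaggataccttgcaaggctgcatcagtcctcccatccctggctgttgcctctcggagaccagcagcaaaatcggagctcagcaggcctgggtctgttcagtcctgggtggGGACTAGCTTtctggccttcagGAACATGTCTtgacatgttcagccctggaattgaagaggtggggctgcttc
Cdkn1a downstream start: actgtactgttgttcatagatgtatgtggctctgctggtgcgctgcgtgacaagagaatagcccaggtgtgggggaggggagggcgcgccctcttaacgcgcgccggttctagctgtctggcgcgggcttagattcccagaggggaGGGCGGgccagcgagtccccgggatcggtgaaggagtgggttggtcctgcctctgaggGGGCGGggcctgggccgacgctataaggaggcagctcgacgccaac
Gadd45a start: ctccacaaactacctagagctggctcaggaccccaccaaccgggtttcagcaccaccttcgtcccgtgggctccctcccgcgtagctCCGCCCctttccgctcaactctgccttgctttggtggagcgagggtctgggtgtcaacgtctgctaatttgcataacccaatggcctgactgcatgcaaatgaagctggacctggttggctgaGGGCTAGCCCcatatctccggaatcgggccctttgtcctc
The upstream Cdkn1a window holds decamers that begin 73 and 51 bases before the start, with 12 bases between them. The downstream window holds no decamer and a pair of GC boxes. Gadd45a has 1 decamer, 40 bases before its start, and 1 GC box.

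Of the 10 genes, 9 had windows in the RefSeq table, 13 windows in all; Trp53inp1 was not in it. The p53 decamer, searched on both strands, was found in 7 of the 13 windows (Bax, Ccng1, Cdkn1a, Gadd45a, Mdm2, Sesn1 and Trp53) and in 7.13% of all 32851 windows of this length. A pair of decamers with at most 13 bases between them was in 1 of the 13, the upstream Cdkn1a window, and in 0.0639% of all windows. The GC box was in 10 of the 13 and in 32.7% of all, CCAAT in 8 and 33.8%, and TATAAA in 2 and 12.4%. The FoxO motif GTAAACA was in 3 of the 13 and 3.17% of all. The ATF4 motif TGATGNAA was in 0 of the 13 and 3.45% of all. These matches are letters in a window and not measured binding.

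The array reads Cdkn1a at both ends. The first probe, spotted 10 times on each array, begins at base 1619 of the transcript and lies at chr17:29237377-29237436 of mm9, the build of the array files. The other begins at base 55 of transcript variant 2 and lies at chr17:29227986-29228045. The Trp53 probe is annotated to begin at base 1187 of the Trp53 transcript but is placed at chr17:54560025-54560084 of mm9. The gene table has Trp53 on chromosome 11. The first 30 of the 60 bases of each are given so that the measured molecule can be traced, with no part in capitals.
Cdkn1a probe 1: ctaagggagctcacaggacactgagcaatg
Cdkn1a probe 2: aatggagacagagaccccagataattaagg
Trp53 probe: ccttagagttaaaggatgcccatgctacag
Such a difference of chromosome was found for 2003 of 28330 named probes (7.07%). The probes were not realigned, so the Trp53 values are uncertain as a measure of the gene.

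All values below are log2 of the spot intensity after quantile normalization between arrays, and a difference is AR113Q minus WT on that scale with its standard error (SE) from limma. Probes well above background on 3 or more of the 7 arrays were kept. Of the 13 member probes 11 were kept, at least 1 for each of the 10 genes, which left out the variant 2 probe of Cdkn1a and the first of the probes of Eda2r. Differentially expressed genes (DEGs) were those with a log2 difference of 1 or more in size and a Benjamini-Hochberg adjusted p no larger than 0.05. By these thresholds 6 of the 10 members were DEGs: Cdkn1a, Gadd45a, Trp53inp1, Bbc3 and Sesn1 were higher in AR113Q muscle and Ccng1 was lower. Over all 16577 genes 24.3% were DEGs, 11.2% higher and 13.1% lower. By probe, 7 of the 11 kept member probes were DEGs and 24.8% of all 20991 kept probes were. The same 7 member probes had no overlap between genotypes, as had 49.6% of all kept probes. Because the members were selected on this contrast, nothing is read from these counts.

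**Figure D1:**
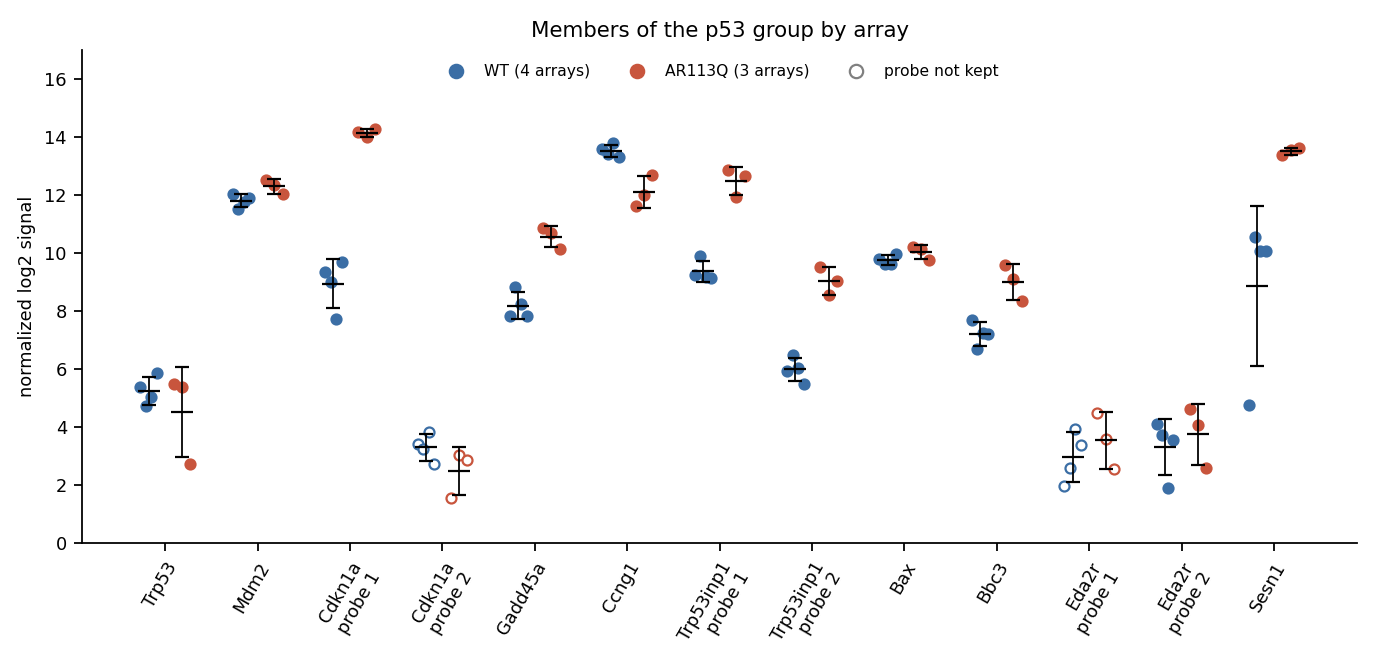
Normalized log2 signal (vertical axis) of the 13 probes of the 10 genes on each of the 7 arrays, with WT in blue and AR113Q in red, black bars for mean ± SD, and open points for the 2 probes that were not kept. Cdkn1a probe 1, Gadd45a, both Trp53inp1 probes, Bbc3 and Sesn1 lie higher and Ccng1 lower on all 3 AR113Q arrays than on any WT array.

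The facts of the arrays that bear on all members are these. The share of probes well above background was 47.6% to 55.8% per array, and saturation affected 0 spots. The arrays came from 5 slides; slide 2, with WT replicate 2 and AR113Q replicate 1, was the only slide shared by the genotypes. The labelled tissue was checked with 7 myofibre markers, all of which were well above background on every array, with a summed log2 level of 19.5 to 19.7 in WT and 19.0 to 19.6 in AR113Q. Of 31 tested cell type markers 8 were DEGs, beside 24.3% of all genes. Lower were 2 of 3 adipocyte, 2 of 4 fibroblast, 2 of 5 macrophage and 1 of 4 Schwann cell markers, 1 macrophage marker was higher, and no myofibre, endothelial, satellite cell or neutrophil marker was a DEG. The summed level of 3 adipocyte markers was 11.5 to 12.6 in WT and 8.83 to 10.3 in AR113Q. The 5 macrophage markers summed to 12.4 to 13.3 and 12.1 to 12.3, and the 4 Schwann cell markers to 9.90 to 11.4 and 9.26 to 9.52. The fibroblast markers summed to 16.0 to 16.2 in WT and 16.1 to 16.6 in AR113Q, a sum carried by Dcn (15.75 to 16.04 and 16.11 to 16.52), while the 2 DEGs, Col1a1 at -3.27 and Lum at -2.39, were lower. The neutrophil markers summed to 6.79 to 13.1 and 10.1 to 11.3. In whole muscle fewer cells of a type and less RNA per cell cannot be told apart, and the part of these shifts in the members' values was not tested.

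Trp53 itself was close to background. On WT arrays 1 to 4 the log2 signal was 5.40, 4.72, 5.05 and 5.86, and it was 5.48, 5.39 and 2.73 on AR113Q arrays 1 to 3. The genotypes overlapped, AR113Q replicate 3 was the lowest, and the probe was well above background on 4 of 4 WT and 2 of 3 AR113Q arrays. The difference was -0.72 (SE 0.64), and without AR113Q replicate 3 it was 0.18, so its direction rested on that array. On slide 2 it was 0.76.

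Mdm2, the ubiquitin ligase that marks p53 for degradation and is itself a p53 target, had log2 signals of 12.05, 11.54, 11.76 and 11.89 in WT and 12.52, 12.36 and 12.03 in AR113Q. The lowest AR113Q array lay just under the highest WT array. The difference was 0.49 (SE 0.19), a 1.41-fold higher mean that was not past the fold threshold, and 0.99 on slide 2.

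Cdkn1a encodes p21, an inhibitor of cyclin-dependent kinases that holds cells in G1. At the probe near the end of the transcript its log2 signal was 9.36, 9.01, 7.74 and 9.70 in WT and 14.16, 14.00 and 14.28 in AR113Q. The AR113Q arrays lay close together (SD 0.14, n = 3) and far above every WT array, among which replicate 3 was lowest (SD 0.86, n = 4). The difference was 5.20 (SE 0.42), a 36.7-fold higher mean. The 10 spots of this probe on 1 array had an SD of 0.05 to 0.14, below the spread between WT mice and up to the size of that between AR113Q mice. Between WT replicate 2 and AR113Q replicate 1, which shared a slide, the difference was 5.15, and it lay between 4.74 and 5.45 in the settings tried.

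The probe at the start of Cdkn1a variant 2 was near background. Its log2 signal was 3.42, 3.25, 3.84 and 2.72 in WT and 1.55, 3.06 and 2.87 in AR113Q, and it was well above background on 1 of 4 WT and 0 of 3 AR113Q arrays. At a level this close to background no difference is given. The windows above are not paired with transcript variants in the gene table, so which start the higher signal near the end of the transcript came from was not tested.

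Gadd45a, a stress sensor that binds PCNA and p21 and takes part in DNA repair and demethylation, had log2 signals of 7.84, 8.82, 8.23 and 7.83 in WT and 10.86, 10.71 and 10.15 in AR113Q. All AR113Q arrays lay above all WT arrays. The difference was 2.39 (SE 0.29), a 5.24-fold higher mean. It was 2.03 on slide 2, and 1.92 with normexp background correction.

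Ccng1 encodes cyclin G1, a p53 target that recruits a phosphatase to MDM2, and it was the member that was lower. Cyclin G1 transcript had a log2 signal of 13.60, 13.41, 13.80 and 13.33 in WT and 11.62, 12.00 and 12.71 in AR113Q. All 3 AR113Q arrays lay under the WT arrays, with replicate 3 nearest to them. The difference was -1.43 (SE 0.26), a 2.69-fold lower mean, and -1.80 on slide 2.

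Trp53inp1, a stress protein that promotes p53 activity and autophagy, was read by probes in different places of its transcript. Probe 1, which begins at base 5041, had log2 signals of 9.24, 9.91, 9.17 and 9.16 in WT and 12.88, 11.95 and 12.64 in AR113Q. Probe 2, which begins at base 659, had 5.94, 6.49, 6.04 and 5.49 in WT and 9.51, 8.57 and 9.04 in AR113Q. At both probes AR113Q replicate 1 was highest and replicate 2 lowest, WT replicate 2 was the highest WT array, and the groups did not overlap. The differences were 3.12 (SE 0.28) and 3.05 (SE 0.29), so the probes differed by less than their errors. On slide 2 they were 2.97 and 3.02. With the authors' normalized values that of probe 2 was 1.48.

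Of the apoptosis genes, Bax, which permeabilizes the outer mitochondrial membrane, had log2 signals of 9.79, 9.61, 9.63 and 9.98 in WT and 10.21, 10.15 and 9.76 in AR113Q. The genotypes overlapped and the difference was 0.29 (SE 0.18), and 0.60 on slide 2. Bbc3, which encodes PUMA, a BH3-only protein that frees BAX, had 7.71, 6.69, 7.24 and 7.23 in WT and 9.58, 9.11 and 8.34 in AR113Q. Here the groups did not overlap, and the difference was 1.79 (SE 0.33), a 3.46-fold higher mean. It was 2.89 on slide 2 and 1.19 with the authors' normalized values.

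Eda2r, a death-domain-free receptor of the TNF receptor family that binds ectodysplasin A2, was near background at both probes. The probe that was not kept was well above background on 0 of 7 arrays. The kept one had log2 signals of 4.10, 3.72, 1.91 and 3.56 in WT and 4.62, 4.08 and 2.58 in AR113Q, and was well above background on 1 WT and 2 AR113Q arrays. The groups overlapped and the difference was 0.44 (SE 0.61). Without WT replicate 3 it was -0.03 and on slide 2 it was 0.90, so no direction is given.

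Sesn1 encodes sestrin 1, a leucine sensor that restrains mTORC1 and limits oxidative stress. The log2 signal was 4.75, 10.56, 10.08 and 10.06 in WT and 13.39, 13.57 and 13.61 in AR113Q. WT replicate 1 stood far below the other WT arrays, and its spot, with an intensity of 20.8, was the only member spot that the extraction software marked as not found. With it the difference was 4.66 (SE 1.27), or 25.2-fold. Without spots that were not found, a choice made after seeing the data, it was 3.26 (SE 0.20), or 9.57-fold. All AR113Q arrays lay above all WT arrays either way. On slide 2 the difference was 2.82.

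**Figure D2:**
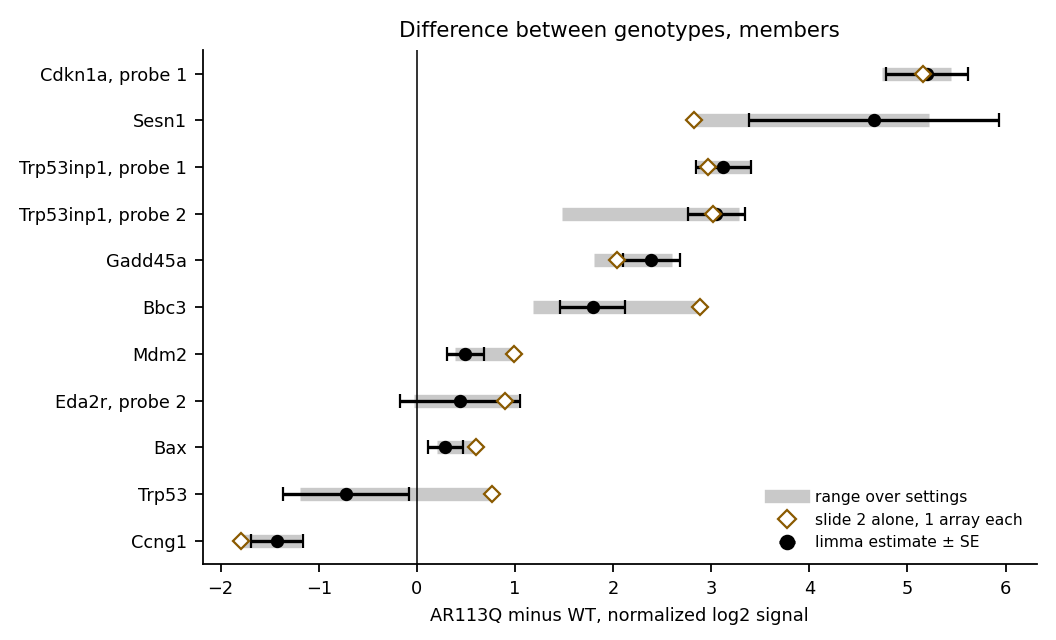
Difference between genotypes (horizontal axis, AR113Q minus WT in normalized log2 signal) for the 11 kept member probes, as the limma estimate with SE (black), the range over all settings tried (grey band) and the difference between the 2 arrays of slide 2 (open diamonds). The bands of Trp53 and Eda2r cross 0, and that of Cdkn1a probe 1 runs from 4.74 to 5.45.

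The 10 members thus ran from 5.20 to -1.43. With all spots the gap between Cdkn1a and Sesn1 was smaller than the SE of Sesn1. Without spots that were not found Cdkn1a was at 5.16 and Sesn1 at 3.26, and without WT replicate 1 they were at 5.33 and 3.29. Without WT replicate 3 the order turned, to 4.79 and 5.06, and without WT replicate 2 both were at 5.22, so no order is given. Mdm2, Eda2r and Bax lay within their errors of each other. With slide as a fixed effect in limma 0 of the members and 0 of all genes were called, and 6157 of 16563 genes had an unadjusted p below 0.05. Only the pair of arrays on slide 2 informs the difference in that fit. In the other settings Sesn1 was lost with no filter on dim probes and without AR113Q replicate 1 or 2, and the other 5 called members were called in each.

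The relatives of each member give a comparison within its family, and their limma p-values, adjusted by Benjamini-Hochberg over all kept probes, are given. Of 30 relatives 28 were tested, with 6 DEGs higher and 2 lower, which is 28.6% beside 24.3% of all genes, and their median difference was 0.29 beside -0.01. Of the 8 DEGs, 2 remained DEGs with normexp background correction, where 10.6% of all genes were DEGs, and 1 with the authors' values, where 9.16% were.

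Among other inhibitors of cyclin-dependent kinases, Cdkn2b, which encodes p15 and blocks CDK4 and CDK6, fell. Its log2 signal was 7.98, 7.57, 7.54 and 7.95 in WT and 4.47, 4.71 and 5.19 in AR113Q (difference -2.97, SE 0.22, limma adjusted p = 0.000106). It was not a DEG with the authors' values. At its other kept probe 0 of 3 AR113Q arrays reached the well above background mark, and the level there was lower by at least 4.14-fold (limma adjusted p = 0.000948), for a probe that the WT arrays alone carried past the filter. The paralogs of Cdkn1a did not pass the thresholds: Cdkn1b, which encodes p27, had 0.33 (SE 0.26, limma adjusted p = 0.327), and Cdkn1c, which encodes p57, had -0.65 (SE 0.23, limma adjusted p = 0.0467). Cdkn2c had -0.48 (SE 0.25) and Cdkn2d 0.05 (SE 0.22).

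Neither other GADD45 gene passed. Gadd45b had a difference of 0.24 (SE 0.24, limma adjusted p = 0.431) and Gadd45g 0.02 (SE 0.25, limma adjusted p = 0.961). Gadd45g was well above background on every array, between 14.51 and 15.44 in WT and between 14.73 and 15.25 in AR113Q. The p-values do not show that these genes were alike in the groups.

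Both other sestrins had higher means. Sesn2, a target of p53 and ATF4, rose by 1.38 (SE 0.16, limma adjusted p = 0.000462), with 6.41 to 6.72 in WT and 7.80 to 8.04 in AR113Q. It lost its call with normexp background correction, the mean spot intensity and the authors' values. Sesn3, which FoxO factors control, had 0.91 (SE 0.23, limma adjusted p = 0.0151), short of the fold threshold.

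Ccng2, the paralog of Ccng1 and a FoxO target, rose by 1.76 (SE 0.25, limma adjusted p = 0.00113), while Ccng1 was lower. Its log2 signal was 5.70, 6.24, 5.87 and 6.45 in WT and 8.25, 7.74 and 7.50 in AR113Q, with no overlap. Ccng2 was not a DEG with normexp background correction, with the mean spot intensity or with the authors' values, whereas Ccng1 was called in each. Trp53inp2, a paralog of Trp53inp1 that acts in autophagosome formation, had -0.63 (SE 0.26, limma adjusted p = 0.0866). Mdm4, the partner of MDM2 in restraining p53, had 0.77 (SE 0.21, limma adjusted p = 0.0209), at a probe placed on chromosome X while the gene table has the gene on chromosome 1.

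Of the p53 family, Trp73 had 0.68 (SE 0.29, limma adjusted p = 0.0881) close to background. The 4 kept probes of Trp63 disagreed: the brightest had -0.69 (SE 0.19, limma adjusted p = 0.0188), and the others had 1.20, 1.59 and 2.44. Those at 1.59 and 2.44 were DEGs at the probe level. Of the receptors and ligand related to Eda2r, Eda, the ectodysplasin gene, had 0.28 (SE 0.21), Edar was not tested, and Tnfrsf19, a receptor of the same family, fell by 1.38 (SE 0.38, limma adjusted p = 0.0189), with -0.03 at its other probe. It was not a DEG with normexp background correction, the mean spot intensity, the authors' values or no filter on dim probes, or without AR113Q replicate 1.

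**Figure D3:**
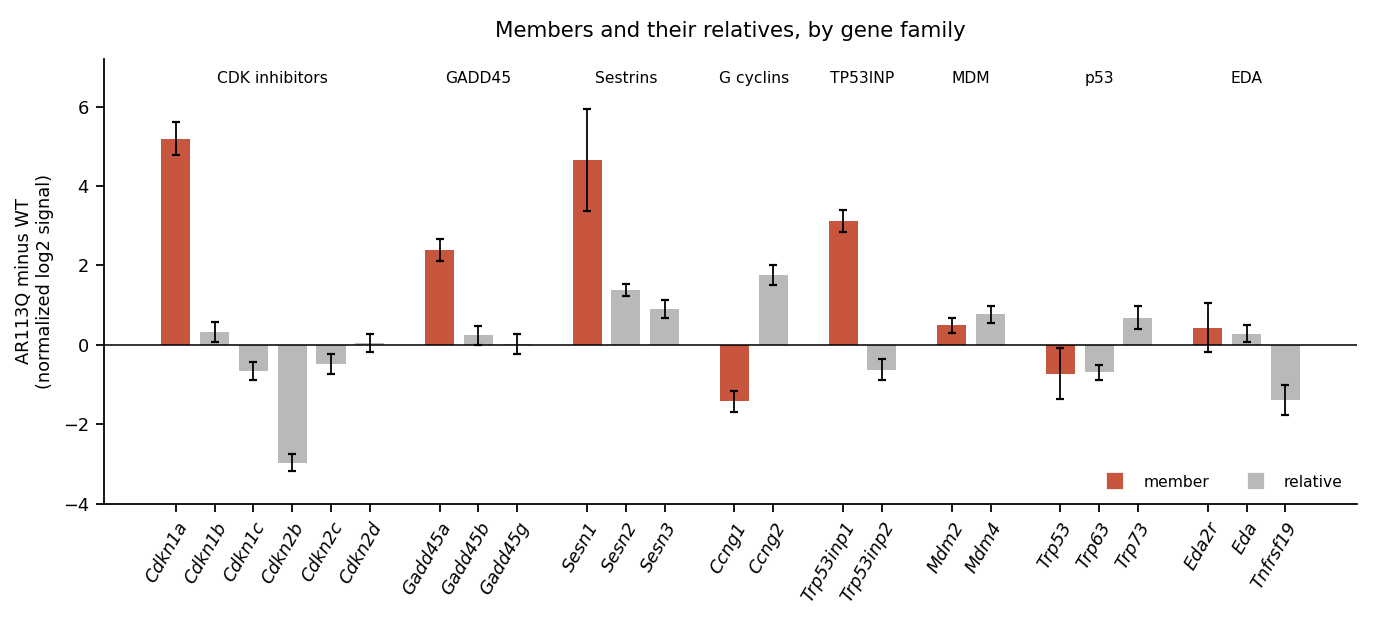
Difference between genotypes (vertical axis, AR113Q minus WT in normalized log2 signal) with SE bars for the members (red) and their tested relatives (grey), each by its brightest kept probe, grouped by gene family. Cdkn1a at 5.20 stands beside Cdkn1b at 0.33, Gadd45a at 2.39 beside Gadd45g at 0.02, and Ccng1 at -1.43 beside Ccng2 at 1.76, which was not a DEG with other background treatments.

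In the BCL2 family, 4 of 12 tested genes outside Bax and Bbc3 were DEGs, all higher, beside 11.2% of all genes that were DEGs with a higher level. The filter on dim probes favoured this direction for Pmaip1 and Bcl2l11. Pmaip1, which encodes the BH3-only protein NOXA, was at 1.55 to 3.40 in WT and 5.59 to 6.01 in AR113Q (difference 3.40, SE 0.45, limma adjusted p = 0.000813), and was well above background on 1 of 4 WT arrays. Its probe passed the filter only through the AR113Q arrays. Bcl2l11, which encodes BIM, rose by 1.89 (SE 0.41, limma adjusted p = 0.00731) from a WT level well above background on 1 of 4 arrays. It too passed the filter only through the AR113Q arrays. Bmf, another BH3-only gene, rose by 1.80 (SE 0.18, limma adjusted p = 0.000294). Bcl2l1, which encodes BCL-XL and counters BAX, rose by 1.29 (SE 0.25, limma adjusted p = 0.00409). With normexp background correction only Bcl2l1 of these 4 was a DEG, beside 4.90% of all genes higher. With the authors' values Bmf was lost too, while Pmaip1 and Bcl2l11 were not tested there.

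Beyond the members, 44 further p53 target genes were listed from textbook knowledge and 36 were tested. There were 11 DEGs that were higher in AR113Q and 4 that were lower, 41.7% of those tested beside 24.3% of all genes, and 21 did not pass. The median difference was 0.61 beside -0.01 over all genes. The count changed with the background treatment: with normexp background correction, with the mean spot intensity and with the authors' values there were 7 DEGs, of which 3 were higher and 4 lower, beside 10.6%, 11.5% and 9.16% of all genes. The list is not independent of these data, since it was written with earlier results of the arrays known.

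By role, 2 of 4 tested cell cycle genes rose. Over all genes 11.2% were DEGs with a higher level and 13.1% with a lower level. Of 10 cell death genes 3 rose and 1 fell, and of 4 DNA repair genes 1 rose and 1 fell. Of 8 genes of metabolism and oxidative stress 2 rose and 2 fell, and of 5 secreted or membrane proteins 3 rose. All 3 secreted or membrane genes lost their call with normexp background correction and with the mean spot intensity. Across the roles 3 of the 11 increases stayed DEGs with either treatment. Of 5 genes of feedback and survival 0 were DEGs in limma, with 2 at an unadjusted p below 0.05, as had 10916 of all 20991 kept probes.

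Among the increases, Igfbp3 and Btg2 had the next fitted differences after Pmaip1, of which those of Pmaip1 and Igfbp3 are against WT levels partly at background and have no firm rank. Igfbp3, a secreted binding protein of insulin-like growth factors, had 3.03 to 4.99 in WT and 5.91 to 6.67 in AR113Q, and was well above background on 2 of 4 WT arrays (difference 2.49, SE 0.49, limma adjusted p = 0.00463). The Igfbp3 probe, like that of Pmaip1, passed the filter only through the AR113Q arrays. Btg2, an antiproliferative cofactor of mRNA deadenylation, had 7.49, 7.76, 8.46 and 8.36 in WT and 10.88, 10.16 and 10.32 in AR113Q (difference 2.44, SE 0.29, limma adjusted p = 0.000546). Neither gene overlapped between genotypes, as was so for 49.6% of all kept probes. With normexp background correction Pmaip1 and Igfbp3 were no longer DEGs.

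By the brightest kept probe, the largest decreases were in a polymerase and a metabolic regulator. Polk, which encodes the translesion DNA polymerase kappa, had 8.98, 8.66, 9.30 and 8.90 in WT and 6.06, 6.26 and 5.70 in AR113Q (difference -2.95, SE 0.21, limma adjusted p = 9.31e-05). Tigar, a fructose bisphosphatase that lowers glycolytic flux, had 12.05, 11.72, 12.05 and 11.76 in WT and 10.08, 9.48 and 9.58 in AR113Q (difference -2.18, SE 0.20, limma adjusted p = 0.000192). At their other kept probes Polk had -1.72 and Tigar -1.96, so no order between them is given. Steap3, a metalloreductase, fell by 1.91 (SE 0.24, limma adjusted p = 0.000613), with -0.80 at its other kept probe. All 3 had no overlap between genotypes, as had 49.6% of all kept probes.

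**Figure D4:**
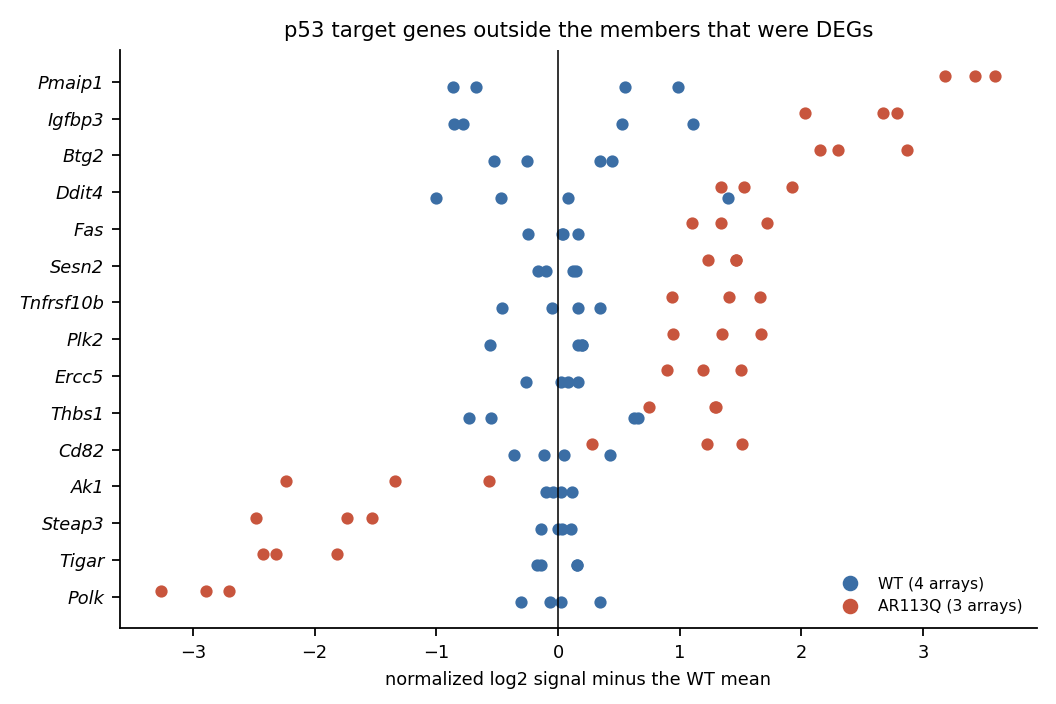
Normalized log2 signal of each array minus the WT mean of the gene (horizontal axis) for the 15 p53 target genes outside the members that were DEGs, WT in blue and AR113Q in red. The genes run by fitted difference from Pmaip1 at the top to Polk at the bottom. Pmaip1 and Igfbp3 are set against WT levels partly at background and have no firm rank.

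Of the p53 regulators 20 of 24 were tested, and 5 were higher and 1 lower, 30.0% beside 24.3% of all genes, with a median of 0.46. Daxx, a histone chaperone that binds p53 and MDM2, rose by 1.85 (SE 0.24, limma adjusted p = 0.000812), and Ing1, a chromatin reader that binds p53, by 1.78 (SE 0.22, limma adjusted p = 0.0006). Sirt1, a deacetylase of p53, had 8.39 to 8.48 in WT and 9.71 to 9.90 in AR113Q (difference 1.35, SE 0.14, limma adjusted p = 0.000305). Chek2, a kinase of the DNA damage response, was 4.47 ± 0.44 (SD, n = 4) in WT and dim on all 3 AR113Q arrays, where it did not reach the well above background mark and was 2.46 ± 0.67 (SD, n = 3), so it was at least 1.81-fold lower (limma adjusted p = 0.00257). Its probe passed the filter through the WT arrays alone. Chek2 was not a DEG with normexp background correction, with the mean spot intensity or with the authors' values. Of 6 tested ubiquitin ligases and deubiquitinases of p53 or MDM2, 0 were DEGs in limma, with 3 at an unadjusted p below 0.05, as had 10916 of all 20991 kept probes.

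The partners of the member proteins include the cyclins and kinases that p21 inhibits. Of 15 partners 13 were tested, with 1 DEG higher and 3 lower, 30.8% beside 24.3% of all genes, and a median of -0.01. Ccnd1, which encodes cyclin D1, had 9.16, 8.67, 9.21 and 9.13 in WT and 5.06, 5.58 and 4.94 in AR113Q (difference -3.85, SE 0.22, limma adjusted p = 4.5e-05). Ccnd2, which encodes cyclin D2, had 9.41, 9.02, 8.71 and 8.69 in WT and 7.50, 7.12 and 7.11 in AR113Q (difference -1.71, SE 0.22, limma adjusted p = 0.000733). Both were lower on all 3 AR113Q arrays than on any WT array. Ccnd2 was not a DEG with the authors' values. The other 4 tested cyclins and kinases were not DEGs: Ccne1, which encodes cyclin E1, had 0.82 (SE 0.19, limma adjusted p = 0.00954) and Cdk2, its kinase, 0.72 (SE 0.22, limma adjusted p = 0.0276), while Cdk4 had -0.51 and Ccnd3 -0.01.

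Of the 3 pocket protein genes, whose products bind E2F factors downstream of these kinases, 1 rose, 1 fell and 1 did not pass. Rbl2, which encodes p130, the pocket protein of resting cells, rose by 1.83 (SE 0.28, limma adjusted p = 0.00156). Rbl1, which encodes p107, the form of cycling cells, had 6.59, 6.23, 6.57 and 6.49 in WT and 5.13, 3.69 and 3.91 in AR113Q (difference -2.23, SE 0.33, limma adjusted p = 0.00131). Rbl1 was not a DEG with normexp background correction, the mean spot intensity or the authors' values. Rb1 had 0.996 (SE 0.17, limma adjusted p = 0.00256), just short of the fold threshold, with no overlap.

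Of 27 genes of proliferation 17 were tested, and 10 were too dim. Among those tested 2 were higher and 4 lower, 35.3% beside 24.3% of all genes, with a median of 0.13. Aurka, a mitotic kinase, had 9.64, 8.90, 8.81 and 9.75 in WT and 5.98, 6.62 and 5.68 in AR113Q (difference -3.18, SE 0.32, limma adjusted p = 0.000285). E2f1, which drives entry into S phase, fell by 1.91 (SE 0.24, limma adjusted p = 0.000674) and Mki67, the Ki-67 gene, by 1.26 (SE 0.37, limma adjusted p = 0.0259). The other kept probe of Mki67 had -1.03 and was not a DEG. The call of Mki67 was lost when WT replicate 2, WT replicate 4, AR113Q replicate 1 or AR113Q replicate 3 was left out.

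In the opposite direction, Bub1b, a spindle checkpoint kinase, was not well above background on any WT array (2.18 ± 0.56, SD, n = 4) and was 5.47 ± 0.29 (SD, n = 3) in AR113Q, so it was at least 3.15-fold higher (limma adjusted p = 0.000215), at a probe that passed the filter through the AR113Q arrays alone. Rrm2, a ribonucleotide reductase subunit, rose by 1.79 (SE 0.43, limma adjusted p = 0.0107), at a probe placed on chromosome 19 while the gene table has the gene on chromosome 12. Of the 6 DEGs only Aurka was a DEG with normexp background correction or with the mean spot intensity. With the authors' values it was the only DEG of 5 tested, Bub1b not being among them.

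**Figure D5:**
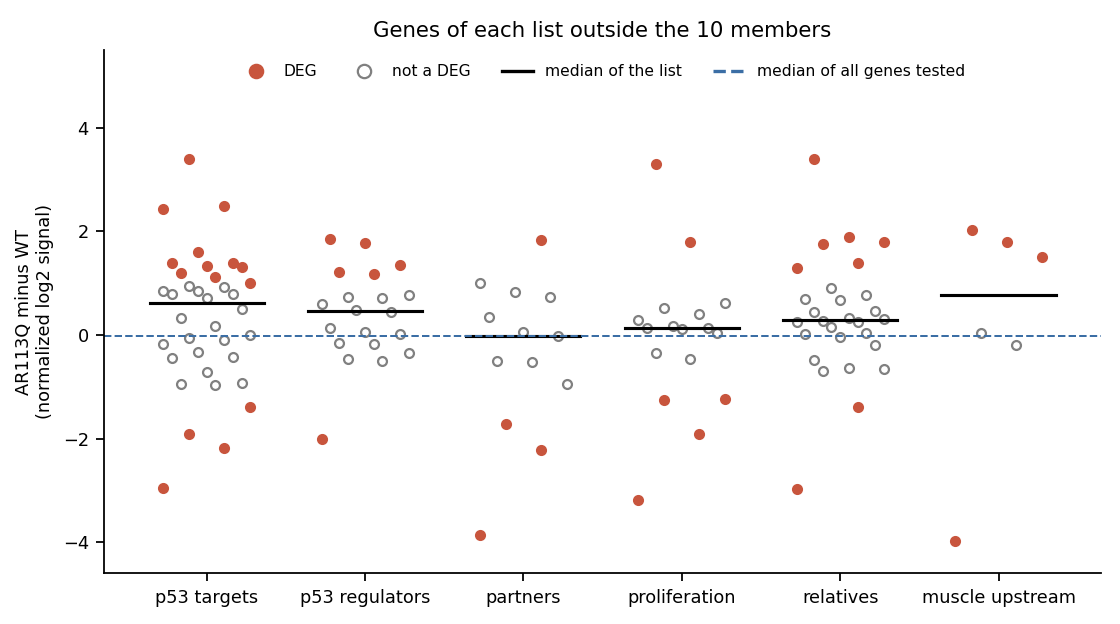
Difference between genotypes (vertical axis, AR113Q minus WT in normalized log2 signal) of each tested gene in 6 lists, by its brightest kept probe, with DEGs filled, list medians as black lines and the median of all genes, -0.01, as a dashed line. The medians run from -0.01 for the partners to 0.77 for the regulators of Cdkn1a or Gadd45a in muscle, and each list holds genes on both sides of 0.

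Of 6 transcription regulators that control Cdkn1a or Gadd45a in muscle, Atf4, a factor of the integrated stress response, rose most clearly. Its log2 signal was 14.82, 14.82, 14.70 and 14.95 in WT and 16.52, 16.13 and 16.34 in AR113Q (difference 1.50, SE 0.16, limma adjusted p = 0.000345). Foxo1 rose by 1.79 (SE 0.44, limma adjusted p = 0.0125), with 1.14 at its other kept probe, which was not a DEG. Foxo3 was not well above background on any WT array and was at least 1.60-fold higher in AR113Q (limma adjusted p = 0.0029), with means of 2.46 and 4.49. Its probe, too, passed the filter through AR113Q alone, and it was not a DEG with normexp background correction or the mean spot intensity.

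Myod1, which activates Cdkn1a in myoblasts, had 8.95, 7.84, 8.74 and 8.79 in WT and 4.79, 4.43 and 4.57 in AR113Q (difference -3.98, SE 0.27, limma adjusted p = 8.58e-05). Myod1 was lower on every AR113Q array than on any WT array. Which of these regulators acts on Cdkn1a or Gadd45a here was not tested. Hdac4, a deacetylase that rises after denervation, had 0.05 (SE 0.21, limma adjusted p = 0.88), and Myog, a myogenic factor induced by denervation, had -0.20 (SE 0.44, limma adjusted p = 0.743).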

How the data were processed

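RNA of quadriceps from 4 WT and 3 AR113Q mice was labelled with Cy3 and hybridized to 1-colour Agilent arrays. The authors deposited scanner files from Agilent Feature Extraction 10.7.3.1, with an intensity per spot that is background-subtracted but not normalized between arrays. The authors also deposited log2 normalized values, used here only as an alternative. Background subtraction widens the spread of dim spots after taking logs.

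Processed intensities were converted to log2, the 94 to 151 outlier spots per array were left out, and 43020 spots per array were quantile normalized, as the study's methods name. Spots were averaged per probe. Groups were compared in R 4.3.3 with limma 3.58.1 (lmFit, eBayes) and Benjamini-Hochberg adjustment over 20991 kept probes, and a gene was read by its brightest kept probe. The fit was tested on simulated data. For a probe that reached the well above background mark on 0 arrays of a group, the fold is a bound: the brighter group's mean against, per array, the larger of the dim probe's own signal and the lowest signal that reached the mark. Names came from RefSeq accessions (28330 of 39429 probes) or the array. Promoter windows and motifs were read with Python 3.11.15 from RefSeq windows on GRCm38.p6; probe positions are on mm9.

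The 10 members, the gene lists and the tests were chosen with earlier results of these data known. The genes named are all members at every probe; the 3 largest increases and decreases among DEGs of the target, regulator, proliferation and partner lists; all relatives except the BCL2 family, of which the DEGs; and 6 muscle regulators. Further partners, 2 fibroblast DEGs with Dcn, and genes with an array that stood apart were named after their values were seen. Replicates are separate mice, and the number of arrays limits the precision. Replicate numbers did not pair the samples. Alternatives were scaling, background correction, filters, weights, slide, a replicate block, and each array left out. The normexp background correction added an offset of 50, and the mean spot intensity was used without background subtraction.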

Additional observations from a re-analysis of the deposited data

Results flagged for a closer look

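In 6 of 130 probes tested, the highest or lowest of the 4 WT arrays stood apart from the others, by a gap to its neighbour, as a share of the group's range, above Dixon's critical value for 4 values. Chance flags about 1 in 20 groups. For Sesn1 the share was 0.914, with WT replicate 1 at 4.75 and the others at 10.06 to 10.56. For Trp53inp1 probe 1 it was 0.89, with WT replicate 2 highest at 9.91 and the others at 9.16 to 9.24. For Plk2, a p53 target, it was 0.952, with WT replicate 2 lowest at 4.03. For Ei24, another p53 target, it was 0.924, with WT replicate 2 lowest at 8.49. For Ccnd1 it was 0.838, with WT replicate 2 lowest at 8.67, still above the AR113Q arrays. For Crebbp, an acetylase of p53, it was 0.901, with WT replicate 1 highest at 11.70.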

How the results depend on the processing

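Background correction, the use of the authors' values, slide and the fold change threshold moved the counts. Over all probes there were 5208 DEGs, and 2088 with normexp background correction, 2264 with the mean spot intensity, 1592 with the authors' normalized values and 9199 with no fold change threshold. In the same order the 15 DEGs among p53 target genes became 7, 7, 7 and 23, and the 8 among relatives became 2, 3, 1 and 13. The 6 proliferation DEGs became 1 in each of the first 3, and the 4 among partners became 2 with the authors' values and 10 with no fold change threshold. The relatives had 5 when all 7 arrays had to be well above background. With slide as a fixed effect every one of these counts, and that of the 6 p53 regulators, was 0. The causes of these shifts were not tested. The difference of Gadd45a was 2.39, and 1.92 with normexp background correction and 1.80 with the authors' values. With each array left out in turn, Cdkn1a lay between 4.79 and 5.45, Gadd45a between 2.25 and 2.60, the target DEGs between 13 and 16 and the DEGs over all probes between 4454 and 5563. Leaving out spots that were not found was added after the data were examined and kept the same 6 members.

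The replicate numbers did not pair the samples: same-numbered arrays had correlations of deviations of 0.04, -0.02 and 0.16. A replicate block gave 5190 DEGs over all probes, 14 among p53 targets, 5 among p53 regulators, 6 among proliferation genes, 8 among relatives and 5 among partners, with Cdkn1a at 5.45 and Gadd45a at 2.27. Trp53, Eda2r and the dimmest list genes were well above background on some arrays only, which limits their values.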
